A study of Mus musculus with 23 samples.

Results

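The genes described here are 10 genes of NOD-like receptor signaling and of the epithelial inflammasome: the sensors Nod1, Nod2 and Nlrp6, the adaptor kinase Ripk2, the inflammasome adaptor Pycard, the caspases Casp1, Casp4 and Casp8, the cytokine Il18 and the pore-forming protein Gsdmd. They were taken by symbol from the NCBI Gene numbers of the expression table, 10 of its 19215 entries, and all 10 were among the 11337 genes that could be tested. RNA from the small intestine of male ICR mice was sequenced in 23 libraries, and every group had received the alkylating drug busulfan, a chemotherapeutic that damages the intestinal mucosa. The study asked whether gut microbiota of donors dosed with alginate oligosaccharide (AOS) changed the small intestine of such mice, and mice without busulfan were not analysed here. Sa mice were given busulfan at 40 mg/kg once at 3 weeks of age and then saline. Con-FMT, A10-FMT and A100-FMT mice were given the same busulfan and then fecal microbiota transplantation (FMT) by gavage from donors dosed for 3 weeks with water, with AOS at 10 mg/kg or with AOS at 100 mg/kg. By the study's methods FMT was given daily for 1 week, sampling followed at 5 weeks of age, and the luminal contents of the donors of a group were pooled, so that each FMT group represents 1 pool of donors. The sample labels state neither age nor time, and carry a code of unexplained meaning that gives 2 sets of libraries, called set 1 and set 2 here. Each treatment had 3 libraries in each set, except Sa in set 1 with 2. The labels do not say that every library came from its own mouse, so p-values measure the spread between libraries.

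In healthy small intestine, NOD1 and NOD2 are cytosolic receptors for fragments of bacterial peptidoglycan and signal through the kinase RIPK2 to NF-kappa-B. Inflammasomes are a second route. Sensors such as NLRP6 recruit the adaptor ASC (Pycard) and caspase-1, which matures interleukin-18 and cleaves gasdermin D, whose fragment opens pores in the cell membrane. Caspase-11, the product of mouse Casp4, binds bacterial lipopolysaccharide in the cytosol and cleaves gasdermin D without ASC, and caspase-8 stands between apoptosis, necroptosis and gasdermin cleavage. Epithelial cells of the intestine keep several of these proteins, interleukin-18 among them, at a steady level in the absence of infection.

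RefSeq promoter windows on GRCm38.p6 (the assembly of mm10) were found for 8 of the 10 genes, in 10 windows of 250 bases before the start, and not for Gsdmd and Ripk2. Those of Casp1 and Casp4, which neighbour each other on chromosome 9, and that of Pycard are shown because calls of these 3 genes against Sa in set 1 turned on a single library, Sa replicate 3, in which both caspases were low and Pycard was high. Capitals mark the only match in them to any of the motifs searched.

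Casp1, chr9:5298267-5298516, plus strand: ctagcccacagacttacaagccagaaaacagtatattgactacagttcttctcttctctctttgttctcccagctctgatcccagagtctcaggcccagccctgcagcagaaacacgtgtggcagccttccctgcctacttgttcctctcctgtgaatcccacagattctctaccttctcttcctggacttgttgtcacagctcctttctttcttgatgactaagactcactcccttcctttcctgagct
Casp4, chr9:5308599-5308848, plus strand: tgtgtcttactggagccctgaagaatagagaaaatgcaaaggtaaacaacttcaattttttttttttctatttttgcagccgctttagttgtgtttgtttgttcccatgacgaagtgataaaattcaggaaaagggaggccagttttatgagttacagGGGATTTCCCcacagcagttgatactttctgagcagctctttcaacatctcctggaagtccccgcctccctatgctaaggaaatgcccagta
Pycard, chr7:127993868-127994117, minus strand: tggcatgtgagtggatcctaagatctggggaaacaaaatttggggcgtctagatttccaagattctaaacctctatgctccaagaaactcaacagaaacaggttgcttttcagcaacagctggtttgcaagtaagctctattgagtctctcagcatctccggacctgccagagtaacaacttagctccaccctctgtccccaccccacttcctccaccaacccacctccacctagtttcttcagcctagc

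Both strands were searched for an interferon-stimulated response element (ISRE, GAAANNGAAA), a gamma-activated site (GAS, TTCNNNGAA), a TATA box (TATAAA) and a kappa-B site (GGGA and CC with 4 bases of any kind between them). Among all 32851 promoter windows of this length, 2.98% held the ISRE letters, 7.02% the GAS letters, 12.4% the TATA box letters and 17.6% the kappa-B letters. Casp4 held a kappa-B match 92 bases before the start, at letters that fit the pattern on both strands. Its second window overlaps the first and holds the same match. A second start of Nod1 held a GAS match 193 bases before it, and Il18 held TATA box letters on the other strand, 175 bases before the start. No other window of these genes held any of the 4 motifs, and a match or its absence is a statement on letters alone.

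The table lists FPKM (fragments scaled to transcript length and to the number of mapped fragments), so that levels can be compared between genes. Pycard had the highest level, with a mean of 222 FPKM over the 23 libraries and a range of 190.29 to 335.84. Its lowest library was above every library of the other 9 genes. Casp1 (mean 127 FPKM), Nlrp6 (120 FPKM) and Gsdmd (114 FPKM) followed with ranges that overlap. Casp8 (66.5 FPKM) and Il18 (51.7 FPKM) overlapped each other too, and Casp8 reached from 39.79 to 81.78 FPKM and so also overlapped the lower end of Gsdmd. Casp4 was separate from the genes above and below it, at 8.5 to 27.24 FPKM. The NOD receptors and their kinase were lowest. Nod1 had a mean of 2.99 FPKM, Ripk2 2.58 FPKM and Nod2 1.65 FPKM, and the range of Ripk2 overlapped both receptors while Nod1 stayed above 2.19 and Nod2 below 2.01 FPKM. The sensors of peptidoglycan were thus listed at a small fraction of the level of Nlrp6, which was at 100.21 to 144.64 FPKM.

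**Figure D1:**
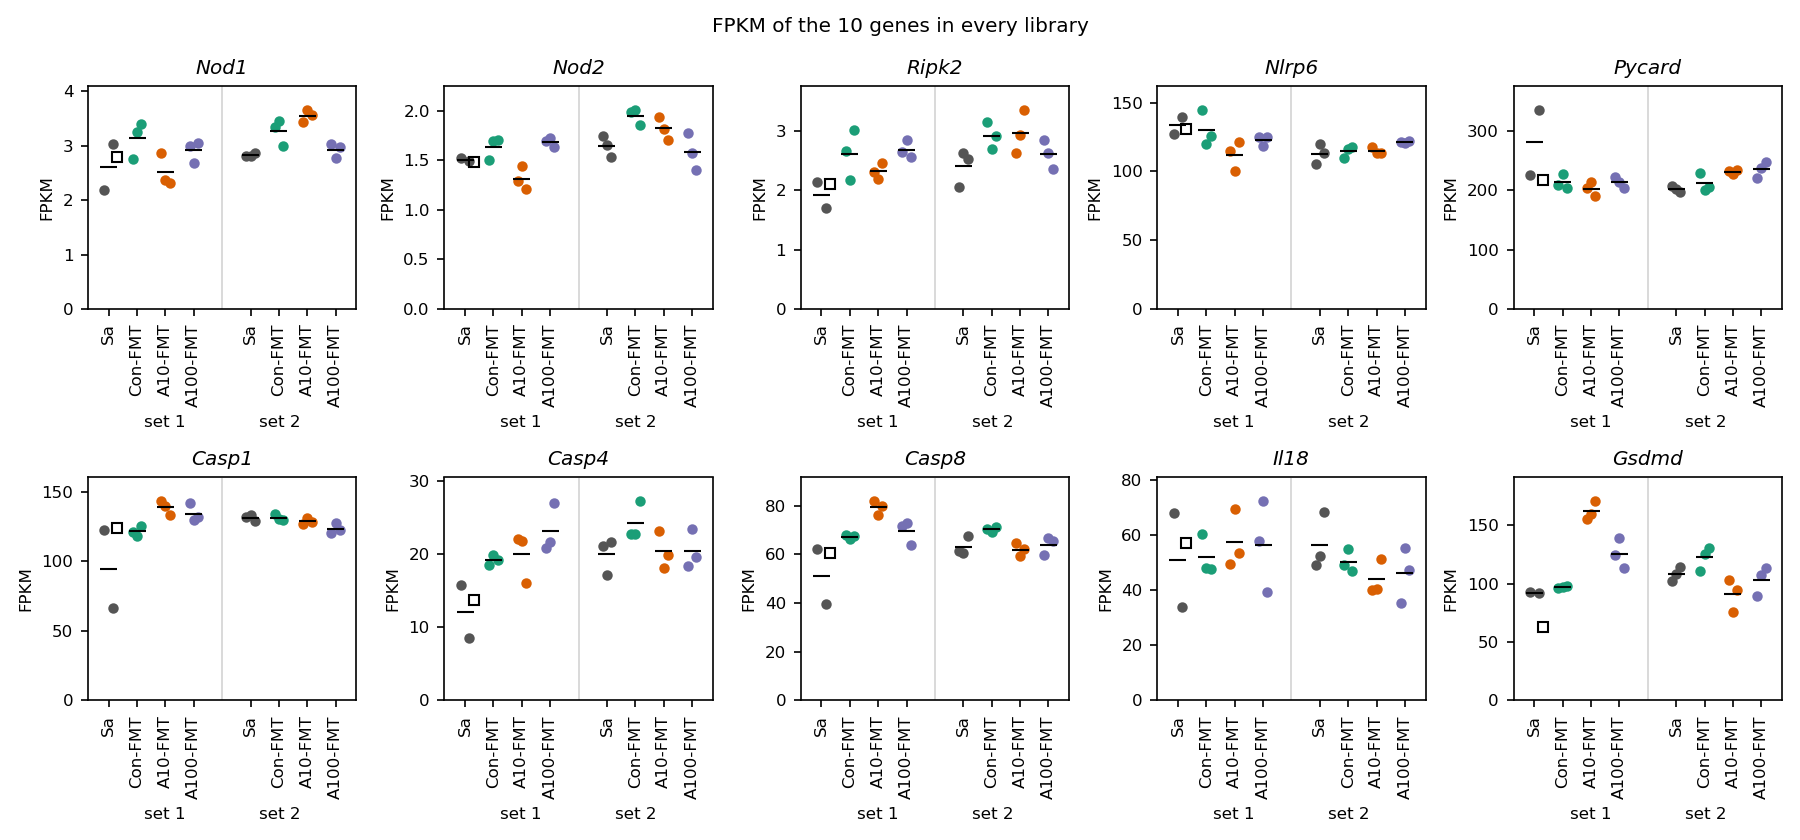
FPKM of each gene (vertical axis, from 0) in every library, by treatment and set. Filled points are libraries, black lines group means, and the open square is the column named in the description of Sa set 1 replicate 3. Gsdmd is highest in the 3 A10-FMT libraries of set 1, and Sa set 1 replicate 3 is lowest in Casp1, Casp4, Casp8 and Il18 and highest in Pycard.

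The tissue was checked against marker lists. All 14 enterocyte markers were tested, and their summed level was 9280 FPKM or more in every library. Of 8 neutrophil markers, 3 were in the table and summed to 0.51 FPKM at most. The 12 macrophage and monocyte markers summed to 51.1 to 79.4 FPKM, although 10 of them had a mean under 1 FPKM. The 9 T cell markers in the table summed to 35.5 to 211 FPKM, with 4 at a mean under 1 FPKM. For 7 B and plasma cell markers the sum was 1.11 to 2.83 FPKM. In bulk tissue, fewer cells of a type and less RNA per cell cannot be told apart. The library titled Sa set 1 replicate 3 stood apart. Genes rich in GC were higher in it relative to the median library (Spearman's rho 0.722), whereas rho lay between -0.231 and 0.228 for each of the other 22 libraries, and its highest correlation with any other library was 0.965, against 0.986 or more in the others. The description of this sample names another column of the table, whose rho was -0.082. Values are from the title's column, and calls of the 10 genes against Sa in set 1 are given also with the description's column and without the library. Without it Sa replicate 1 is the only Sa library of set 1, so a call can be lost while the estimate stays about as large.

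In set 1, the caspases were higher and Pycard was lower after each FMT than in Sa, in the libraries as titled. Casp1, Casp4 and Casp8 passed the test in all 3 comparisons, Pycard fell in all 3, and Gsdmd rose after A10-FMT and A100-FMT. Of the 10 genes, 5 were called in Con-FMT vs. Sa (4 higher, 1 lower), 6 in A10-FMT vs. Sa (4 higher, 2 lower) and 6 in A100-FMT vs. Sa (5 higher, 1 lower), by limma on log2(FPKM + 1) at an adjusted p under 0.05 over all genes tested. Among all genes tested, 26.9% were called in Con-FMT vs. Sa (17.7% higher, 9.17% lower), 32.0% in A10-FMT vs. Sa (13.6% higher, 18.4% lower) and 35.2% in A100-FMT vs. Sa (22.0% higher, 13.1% lower). The median log2 change of the 10 genes was 0.15, 0.21 and 0.26, beside 0.05, -0.01 and 0.05 over all genes. The 3 comparisons share the same 2 Sa libraries.

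Casp4, the cytosolic lipopolysaccharide receptor, had 15.76 and 8.50 FPKM in Sa, 18.51, 19.97 and 19.19 FPKM in Con-FMT, 22.13, 21.84 and 16.12 FPKM in A10-FMT and 20.81, 21.73 and 27.06 FPKM in A100-FMT. All 9 FMT libraries of set 1 were above both Sa libraries. Its log2 change was 0.68 ± 0.19 (SE) after Con-FMT (adjusted p = 0.0267), 0.72 ± 0.19 after A10-FMT (adjusted p = 0.0101) and 0.93 ± 0.19 after A100-FMT (adjusted p = 0.00614). In the description's column Casp4 is at 13.75 FPKM, and these became 0.36 (adjusted p = 0.337), 0.41 (adjusted p = 0.0413) and 0.61 (adjusted p = 0.0183). Without Sa replicate 3 they were 0.27, 0.31 and 0.52, and all 3 calls were lost (adjusted p = 0.829, 0.3 and 0.24).

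Casp1, the protease that matures interleukin-18, had 122.75 and 66.65 FPKM in Sa, 121.52, 118.43 and 125.50 FPKM in Con-FMT, 143.20, 139.82 and 133.49 FPKM in A10-FMT and 142.23, 129.48 and 131.72 FPKM in A100-FMT. Sa replicate 1 lay within the range of Con-FMT, so that the difference from Con-FMT was carried by Sa replicate 3. The log2 change of Casp1 was 0.42 ± 0.14 after Con-FMT (adjusted p = 0.038) and 0.61 ± 0.14 after A10-FMT (adjusted p = 0.00478). With the description's column, at 124.12 FPKM, it was -0.02 after Con-FMT (adjusted p = 0.902) and 0.17 after A10-FMT (adjusted p = 0.00667). Without Sa replicate 3 it was -0.01 (adjusted p = 0.975) and 0.18 (adjusted p = 0.0594). After A100-FMT it was 0.57 ± 0.14 (adjusted p = 0.0113), 0.12 with the description's column (adjusted p = 0.0818) and 0.13 without Sa replicate 3 (adjusted p = 0.33).

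Casp8, the protease shared by death receptor signaling and pyroptosis, had 62.22 and 39.79 FPKM in Sa, 68.00, 66.15 and 67.38 FPKM in Con-FMT, 81.78, 76.34 and 79.97 FPKM in A10-FMT and 71.68, 73.04 and 63.91 FPKM in A100-FMT. The groups did not overlap with Sa, and A10-FMT was above all other libraries of set 1. Its log2 change was 0.66 ± 0.12 after A10-FMT (adjusted p = 0.0011), and remained called there with the description's column at 0.36 (adjusted p = 4.76e-04) and without Sa replicate 3 at 0.35 (adjusted p = 0.0185). Its calls after Con-FMT (0.42) and A100-FMT (0.47) were lost with the description's column, at 0.13 and 0.17 (adjusted p = 0.418 and 0.0812), and without Sa replicate 3, at 0.11 and 0.16 (adjusted p = 0.834 and 0.421).

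Pycard, the adaptor between sensor and caspase-1, had 226.03 and 335.84 FPKM in Sa and 190.29 to 228.46 FPKM in the 9 FMT libraries of set 1. Sa replicate 1 was within the range of Con-FMT, and only Sa replicate 3 was clearly higher. The log2 change was -0.44 ± 0.11 after A10-FMT (adjusted p = 0.00737), and -0.13 with the description's column (adjusted p = 0.133) and -0.16 without Sa replicate 3 (adjusted p = 0.238). After Con-FMT and A100-FMT it was -0.37 in both (adjusted p = 0.0294 and 0.0215), -0.05 in both with the description's column (adjusted p = 0.789 and 0.642) and -0.08 in both without Sa replicate 3 (adjusted p = 0.879 and 0.727). Ripk2, the kinase downstream of NOD1 and NOD2, had 2.13 and 1.70 FPKM in Sa and 2.17 to 3.01 FPKM after FMT. It was called after Con-FMT (0.31 ± 0.11, adjusted p = 0.0482), a call made in 1 of 9 other settings and 5 of the 23 fits that left out a library, and after A100-FMT (0.34 ± 0.11, adjusted p = 0.027), in 4 of 9 and 19 of 23. Using the description's column, these changes were 0.20 and 0.24 (adjusted p = 0.438 and 0.14), and without Sa replicate 3 they were 0.20 and 0.23 (adjusted p = 0.827 and 0.467). After A10-FMT its log2 change was 0.19 ± 0.11 (adjusted p = 0.189). Nlrp6 fell by 0.25 ± 0.08 on the log2 scale after A10-FMT (adjusted p = 0.0271), from 127.24 and 139.62 FPKM in Sa to 114.63, 100.21 and 121.64 FPKM. This call was made in 3 of 9 other settings. The change of Nlrp6 was -0.20 with the description's column (adjusted p = 0.0468), -0.19 without Sa replicate 3 (adjusted p = 0.24) and -0.14 with the correction for GC content and length (adjusted p = 0.185), and the call was also lost without A10-FMT replicate 2.

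Gsdmd, the pore-forming substrate of caspase-1 and caspase-11, had a log2 change of 0.80 ± 0.12 after A10-FMT (adjusted p = 5.47e-04) and 0.44 ± 0.12 after A100-FMT (adjusted p = 0.0134), and 0.07 ± 0.12 after Con-FMT (adjusted p = 0.646). The description's column lists it at 62.93 FPKM, below every other library, which moved the change after A10-FMT to 1.07 (adjusted p = 1.49e-04), and without Sa replicate 3 it was 0.80 (adjusted p = 0.00955). After A100-FMT it was 0.71 with the description's column (adjusted p = 0.00685). Without Sa replicate 3, the change after A100-FMT was about as large (0.43) but not called (adjusted p = 0.215).

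Nod1 and Nod2, the peptidoglycan receptors, and Il18 passed the test in none of these 3 comparisons by limma, nor at an unadjusted p under 0.05. The log2 change of Nod1 ran from -0.03 to 0.20, that of Nod2 from -0.12 to 0.10 and that of Il18 from 0.10 to 0.24. The 2 Sa libraries of set 1 listed Il18 at 68.10 and 33.82 FPKM, which spanned nearly the whole range of the gene over all libraries, and the 95% interval of its change after A10-FMT reached from -0.32 to 0.80. With the description's column the change of Il18 after A10-FMT was -0.13 ± 0.22, of the opposite sign (adjusted p = 0.683).

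**Figure D2:**
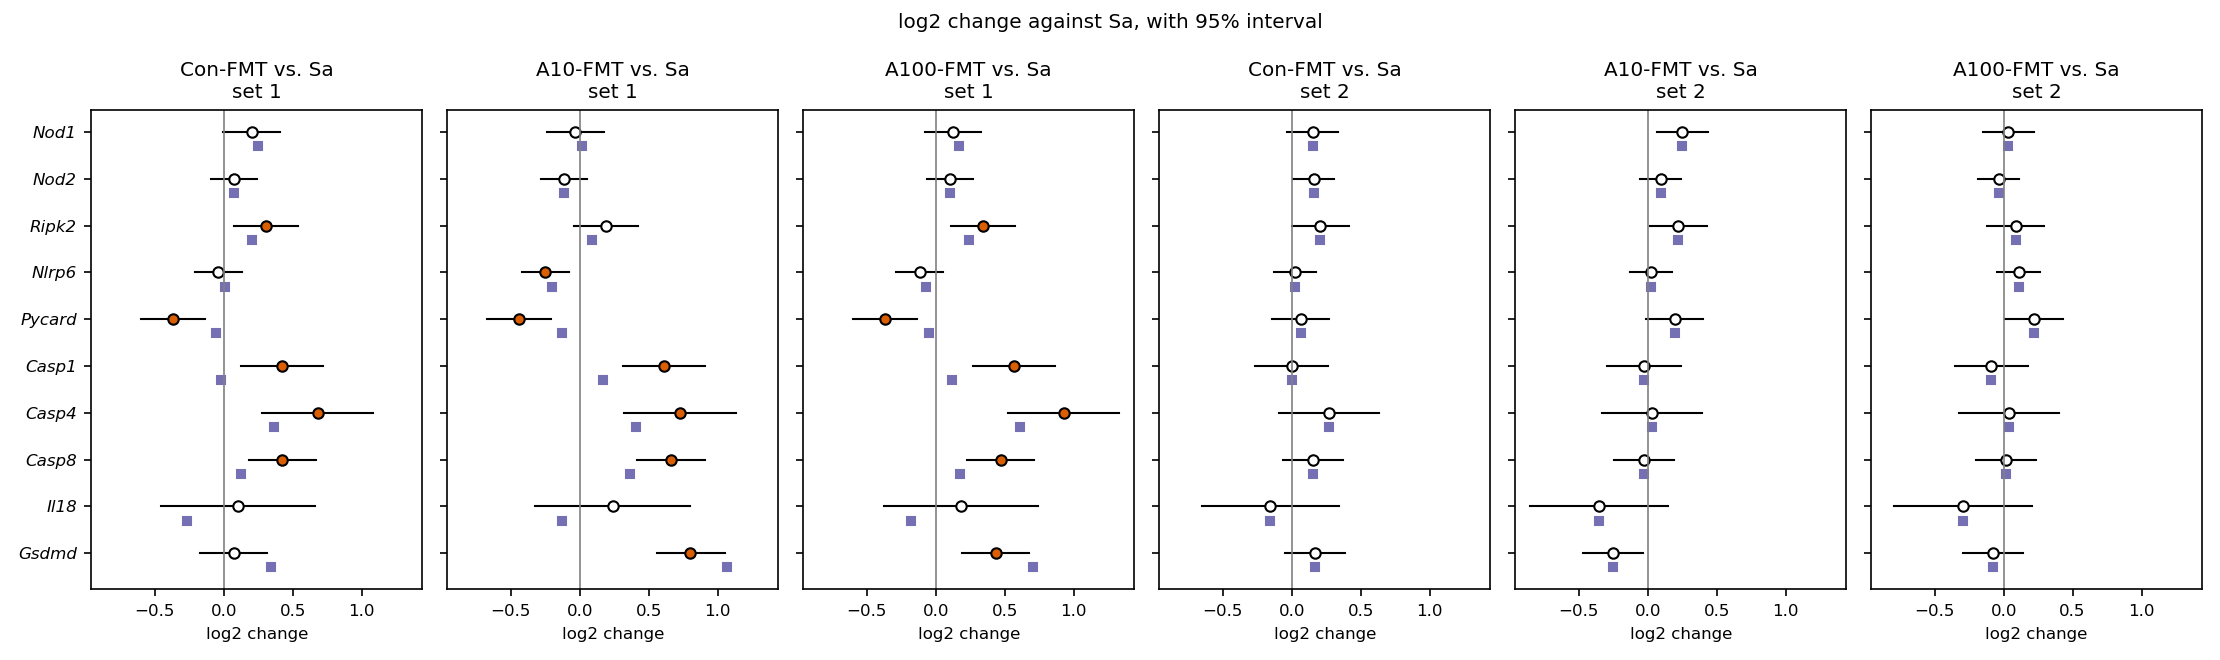
log2 change of each gene against Sa (horizontal axis) after each FMT in set 1 and set 2. Circles are estimates and lines 95% intervals from limma, filled circles passed the test, and violet squares are the estimates with the description's column. Filled circles are found in set 1, and the squares of Casp1 and Pycard there lie closer to 0 than the circles while those of Gsdmd lie farther from it.

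Most calls against Sa in set 1 were lost without Sa replicate 3, a fit in which Sa replicate 1 stands alone, so that a lost call is not by itself a smaller change. The counts were then 0 in Con-FMT vs. Sa, 2 in A10-FMT vs. Sa (Casp8 and Gsdmd) and 0 in A100-FMT vs. Sa, beside 0.00882%, 8.13% and 0.238% of all genes. Counts from the description's column were 0, 5 and 2, beside 0.397%, 33.8% and 8.51% of all genes. Without Sa replicate 1 they were 5, 7 and 7. Without Con-FMT replicate 1 or replicate 3, 0 genes were called in Con-FMT vs. Sa. In a fit of the compared groups alone the counts were 0 in all 3 comparisons. That fit called 1 of 11337 genes in each, so its counts say little about these genes in particular. With array quality weights the counts were also 0 in all 3. The array weight was 0.0859 for both Sa libraries of set 1 and 0.809 or more for the others. The weighted fit therefore cannot tell Sa replicate 1 from replicate 3.

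**Figure D3:**
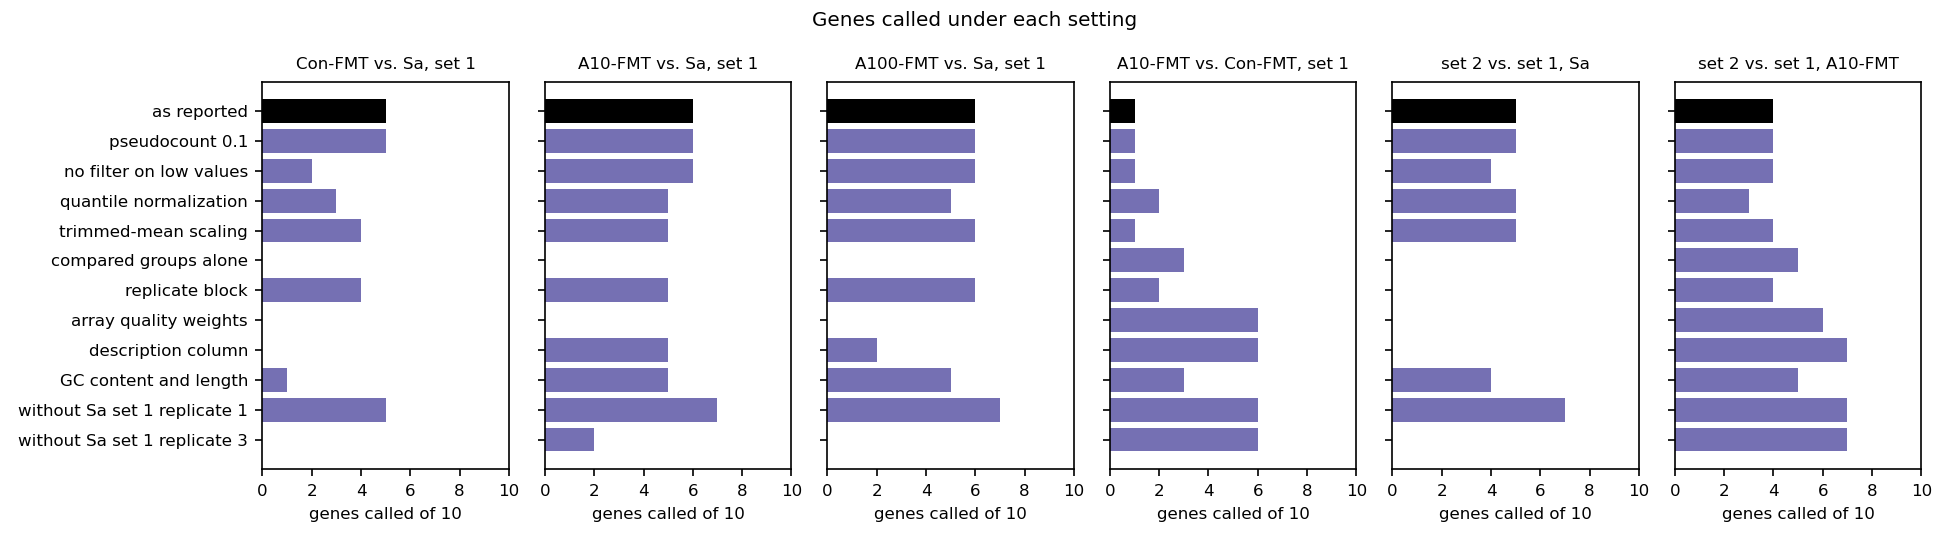
Number of the 10 genes called (horizontal axis, 0 to 10) in 6 comparisons under each setting of the analysis. Black bars are the counts as reported and violet bars the alternatives. Bars for the 3 comparisons with Sa in set 1 are absent without Sa set 1 replicate 3 except in A10-FMT vs. Sa, whereas A10-FMT vs. Con-FMT in set 1 and set 2 vs. set 1 in A10-FMT keep a bar throughout.

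In set 2, none of the 10 genes was called in Con-FMT, A10-FMT or A100-FMT vs. Sa by limma, and 1, 3 and 1 of them had an unadjusted p under 0.05. Among all genes tested, 0.0353%, 0.423% and 0.0353% were called. Casp1 had 131.66, 133.13 and 129.41 FPKM in Sa and 120.60 to 134.05 FPKM in the 9 FMT libraries of set 2, and its log2 change after Con-FMT was -0.000895 with a 95% interval of -0.27 to 0.27. Casp8 had 61.38, 60.64 and 67.67 FPKM in Sa and 70.29, 69.20 and 71.43 FPKM in Con-FMT, which did not overlap, with a log2 change of 0.15 ± 0.10 (adjusted p = 1). Gsdmd after A10-FMT had a log2 change of -0.26 ± 0.10 (adjusted p = 0.269), opposite in sign to set 1.

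Averaged over both sets, 0 genes were called in any of the 3 comparisons with Sa by limma, where 6, 5 and 5 had an unadjusted p under 0.05 and 0.75%, 0.132% and 0.891% of all genes were called. The lowest adjusted p was 0.0659, for Casp4 after A100-FMT (log2 change 0.48 ± 0.13). Casp8 was next after A10-FMT, with a log2 change of 0.32 ± 0.08 (adjusted p = 0.0804). Without Sa set 1 replicate 1, 5, 6 and 5 genes were called, and with the description's column 2 genes, Casp8 and Gsdmd, were called after A10-FMT.

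Between the FMT groups, which do not involve the Sa libraries in their means, Gsdmd was the gene that differed. Gsdmd, which forms the membrane pore of pyroptosis, had 96.22, 97.49 and 97.65 FPKM in Con-FMT, 155.66, 159.56 and 170.54 FPKM in A10-FMT and 124.83, 139.19 and 113.11 FPKM in A100-FMT of set 1. The 3 groups did not overlap, and both Sa libraries were lower than all of them, at 92.58 and 92.08 FPKM. In A10-FMT vs. Con-FMT it rose 1.67-fold, with a log2 change of 0.73 ± 0.10 (adjusted p = 7.29e-04), and it was the 1 gene of the 10 called, beside 16.7% of all genes. It was called there under all 9 other settings and with each of the 23 libraries left out in turn, at log2 changes of 0.68 to 0.81. In A100-FMT vs. A10-FMT it fell by 0.37 ± 0.10 on the log2 scale (adjusted p = 0.0466), again the 1 gene of the 10, beside 5.66% of all genes. That call was lost under 4 of 9 settings and in 15 of the 23 fits that left out a library. In A100-FMT vs. Con-FMT its log2 change was 0.36 ± 0.10 (adjusted p = 0.166), 0 of the 10 genes were called by limma with 1 at an unadjusted p under 0.05, and 0.406% of all genes were called.

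Casp8 was 1.18-fold higher in A10-FMT than in Con-FMT of set 1 without overlap, but missed the threshold (log2 change 0.24 ± 0.10, adjusted p = 0.126). Nod1, Nod2 and Nlrp6 were lower in A10-FMT, with log2 changes of -0.23 ± 0.09, -0.19 ± 0.07 and -0.21 ± 0.07 and adjusted p = 0.0765, 0.0742 and 0.0538. Nod2 had 1.5, 1.70 and 1.71 FPKM in Con-FMT and 1.29, 1.44 and 1.21 FPKM in A10-FMT, without overlap. With the description's column and without Sa set 1 replicate 3, which enter this comparison by the shared spread alone, 6 of the 10 genes were called: Casp1, Casp8 and Gsdmd higher and Nod1, Nod2 and Nlrp6 lower. Of all genes, 32.8% and 32.9% were called in these fits.

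In set 2 the order of Gsdmd was another. It had 110.95, 125.79 and 130.77 FPKM in Con-FMT, 103.52, 76.16 and 94.58 FPKM in A10-FMT and 89.23, 107.17 and 113.35 FPKM in A100-FMT. A10-FMT was below Con-FMT without overlap, with a log2 change of -0.43 ± 0.10 (adjusted p = 0.0706). It was called without A10-FMT set 2 replicate 1, Con-FMT set 2 replicate 1 or either Sa library of set 1. None of the 10 genes was called by limma in A10-FMT vs. Con-FMT, A100-FMT vs. Con-FMT or A100-FMT vs. A10-FMT of set 2, where 1, 2 and 1 had an unadjusted p under 0.05 and 0.379%, 0.0% and 0.00882% of all genes were called. The difference of A10-FMT vs. Con-FMT between the sets, a comparison added after the values were seen, was -1.16 ± 0.15 on the log2 scale for Gsdmd (adjusted p = 1.46e-04), called under all 9 settings and with each library left out. It was the 1 gene of the 10 called, beside 20.8% of all genes.

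**Figure D4:**
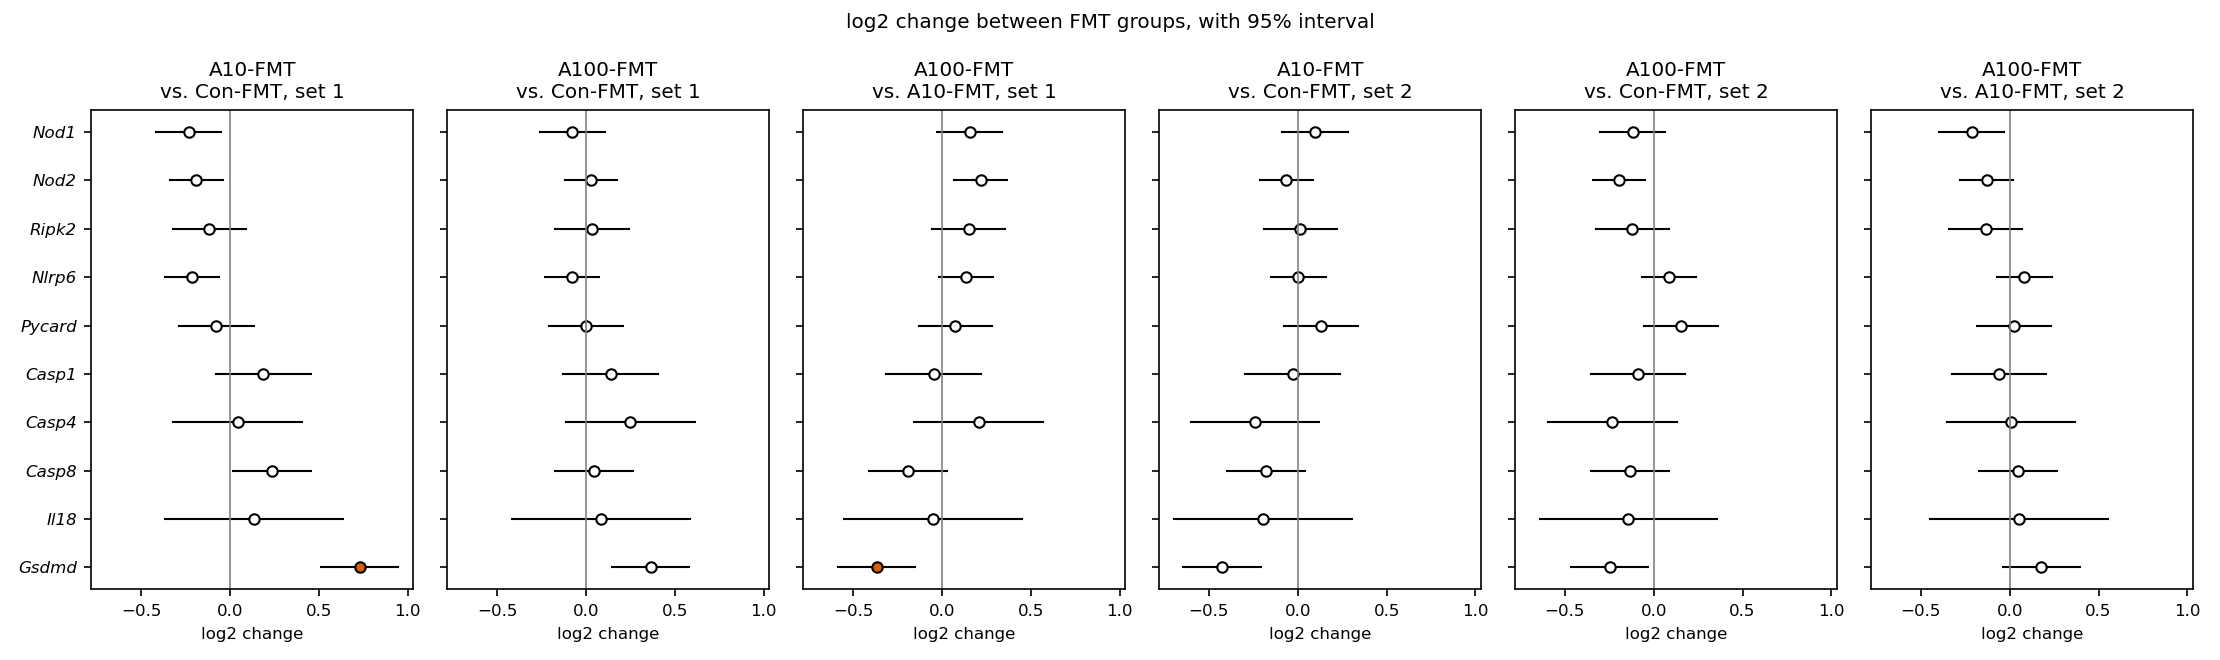
log2 change of each gene between FMT groups (horizontal axis) in set 1 and set 2, with lines for 95% intervals from limma and filled circles for genes that passed the test. Gsdmd lies at 0.73 in A10-FMT vs. Con-FMT of set 1 and at -0.43 in set 2.

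Gsdmd moved with the summed markers of enterocytes, the absorptive cells of the epithelium, though not with each marker. The summed level of the 14 markers was 11600 to 12900 FPKM in Con-FMT and 16700 to 19700 FPKM in A10-FMT of set 1, and 12200 to 14300 FPKM in Con-FMT and 9280 to 11400 FPKM in A10-FMT of set 2, so that the groups did not overlap in either set and were in the order of Gsdmd. In A10-FMT vs. Con-FMT of set 1, 8 of the 14 were called higher, among them Fabp2 and Alpi, and 1 (Cdh1) lower, 3 genes named after their values were seen. In that comparison 16.7% of all genes were called. Over the 23 libraries the FPKM of Gsdmd and the summed markers had a Pearson's r of 0.948 and a Spearman's rho of 0.907, with r = 0.977 within set 1 (11 libraries) and r = 0.853 within set 2 (12 libraries). Without A10-FMT set 1 replicates 2 and 3, the libraries farthest from the median sum, r was 0.906. Both measures come from the same libraries and scaling, and Krt8 (18.9%) and Apoa1 (17.4%) were the largest parts of the sum. Single markers ranged from r = -0.655 with Gsdmd for Cdh1 to 0.927 for Fabp2. Krt8 had -0.0144, Krt18 -0.171, Epcam 0.153 and Sis 0.215. The summed level of 8 crypt and proliferation markers was 586 to 634 FPKM in A10-FMT and 779 to 839 FPKM in Con-FMT of set 1, where 5 of the 8 were called lower. Summed markers of proximal small intestine were 1230 to 1340 FPKM in Con-FMT and 1900 to 2570 FPKM in A10-FMT of set 1. Those of distal small intestine were 905 to 1070 FPKM and 1340 to 1710 FPKM. In set 2 these sums overlapped between the groups. They were 1140 to 1530 and 841 to 1220 FPKM for proximal markers and 799 to 1340 and 632 to 1070 FPKM for distal ones. The part of the cell make-up or of the region sampled in the level of Gsdmd was not tested.

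**Figure D5:**
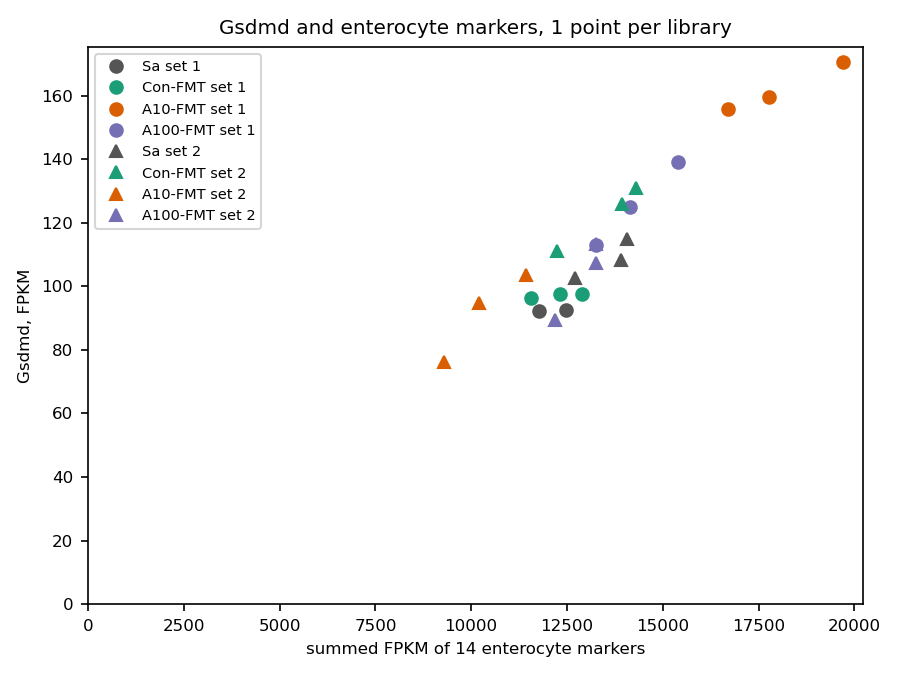
FPKM of Gsdmd (vertical axis) against the summed FPKM of 14 enterocyte markers (horizontal axis), 1 point per library, circles for set 1 and triangles for set 2. A10-FMT is at the upper right in set 1, at 155.66 to 170.54 FPKM of Gsdmd, and at the lower left in set 2.

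Casp8 had r = 0.697 with the same markers over the 23 libraries, 0.726 within set 1, 0.577 within set 2 and 0.827 without Sa set 1 replicate 3. Its r with the summed level of 22 interferon-stimulated genes was 0.782, 0.86 within set 1, 0.845 within set 2 and 0.767 without that library, so that the order of the 2 lists turned with it. That sum was 1030 to 1270 FPKM in Sa and 1560 to 1810 FPKM in the 9 FMT libraries of set 1, and in set 2 it was 1120 to 1190 FPKM in Sa, 1570 to 1640 FPKM in Con-FMT, 1150 to 1430 FPKM in A10-FMT and 1210 to 1420 FPKM in A100-FMT, where A10-FMT overlapped Sa. Nod2 had r = -0.546 with the enterocyte markers, which was -0.295 without A10-FMT set 1 replicates 2 and 3 and so rested on them. Nod1 had r = -0.657 with these markers, -0.479 without the same 2 libraries, -0.52 within set 1 and -0.732 within set 2.

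Within a treatment, the sets differed most in Sa and A10-FMT. In A10-FMT, 4 of the 10 genes were called between set 2 and set 1, beside 30.4% of all genes (21.8% higher, 8.62% lower in set 2). Gsdmd was lower in set 2 by a ratio of 0.565 (log2 change -0.83 ± 0.10, adjusted p = 4.36e-05) and Casp8 by a ratio of 0.781 (-0.35 ± 0.10, adjusted p = 0.0165). Nod1 was 1.41-fold higher in set 2, with 2.87, 2.38 and 2.31 FPKM in set 1 and 3.43, 3.66 and 3.57 FPKM in set 2 (log2 change 0.37 ± 0.09, adjusted p = 0.00425), and Nod2 was 1.39-fold higher (0.29 ± 0.07, adjusted p = 0.00571). The 4 genes did not overlap between the sets, but 7 of the 10 genes had no overlap in this comparison. In Con-FMT, where 0 were called, 6 had no overlap between the sets. The share of all genes without overlap was not computed, so neither count can be read as a result about these genes. The summed enterocyte markers were lower in set 2 and crypt and proliferation markers higher (822 to 908 FPKM against 586 to 634 FPKM), again with no test of their part in these differences.

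In Sa, 5 genes were called between the sets, beside 38.1% of all genes (24.2% higher, 13.9% lower in set 2). Casp1, Casp4 and Casp8 were higher and Pycard and Nlrp6 lower in set 2, and 0 were called without Sa set 1 replicate 3 or with the description's column. With the description's column 4.63% of all genes were called. Without Sa set 2 replicate 1 or replicate 3, 3 of the 10 genes were called. In Con-FMT and A100-FMT, 0 of the 10 genes were called between the sets by limma, beside 0.00882% and 0.0% of all genes, with 3 and 1 at an unadjusted p under 0.05. Nod2 of Con-FMT was one of these, at 1.5, 1.70 and 1.71 FPKM in set 1 and 1.99, 2.01 and 1.86 FPKM in set 2 (log2 change 0.16 ± 0.07, adjusted p = 0.775).

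Whether an FMT changed a gene differently in the 2 sets was asked with an interaction term, with a negative value for a lower change against Sa in set 2. For A10-FMT, Gsdmd (-1.06 ± 0.15, adjusted p = 3.61e-04), Casp8 (-0.69 ± 0.16, adjusted p = 0.00398), Casp1 (-0.64 ± 0.19, adjusted p = 0.0187) and Pycard (0.64 ± 0.15, adjusted p = 0.00475) passed, 4 of the 10 genes beside 28.4% of all genes (17.8% higher, 10.6% lower). The same 4 genes passed without Sa set 1 replicate 3 and with the description's column, but at smaller values except for Gsdmd. Without the library they were -1.05 for Gsdmd, -0.37 for Casp8, -0.21 for Casp1 and 0.35 for Pycard, and with the description's column -1.33, -0.39, -0.20 and 0.33. With that column 36.2% of all genes passed. In all, 8 passed without Sa set 1 replicate 1. For A100-FMT, 5 passed beside 26.8% of all genes (13.3% higher, 13.5% lower), Casp1, Casp4, Casp8 and Gsdmd with negative values and Pycard with a positive one, and 0 passed without Sa set 1 replicate 3. A count of 4 passed with the description's column, at -0.21 for Casp1, -0.58 for Casp4, 0.27 for Pycard and -0.78 for Gsdmd, and Casp8 did not (-0.16, adjusted p = 0.189). With that column 18.6% of all genes passed for A100-FMT. Without A100-FMT set 1 replicate 2, A100-FMT set 2 replicate 1 or Sa set 2 replicate 3, 3 passed. For Con-FMT, 0 passed by limma and 2 had an unadjusted p under 0.05, beside 0.00882% of all genes.

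The wider pathway was described with lists of genes that hold none of the 10. Of all genes, 26.9%, 32.0% and 35.2% were called after Con-FMT, A10-FMT and A100-FMT vs. Sa of set 1 (17.7%, 13.6% and 22.0% higher). With the description's column these shares were 0.397%, 33.8% and 8.51%. Of 13 tested NLR and other inflammasome sensors (22 in the table), 7, 5 and 7 were higher after Con-FMT, A10-FMT and A100-FMT than in Sa of set 1, and 0 were lower, at median log2 changes of 0.51, 0.33 and 0.55. Naip6, of the family that recognises bacterial flagellin and secretion systems, rose by 0.87, 0.86 and 1.42 on the log2 scale. Sa listed it at 10.35 and 27.01 FPKM, and without Sa replicate 3 the changes were 0.22, 0.21 and 0.77, of which the last was called. Its reads can be shared with near-identical Naip copies, so its level is uncertain. Nlrc5, which drives MHC class I transcription, rose by 0.75, 0.73 and 0.88, with 0.49, 0.46 and 0.61 and no call without Sa replicate 3. Without that library, 0, 0 and 1 of the list were called, and with the description's column 0, 4 and 5.

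Of 31 tested partners of NOD1 and NOD2 signaling, 15 (13 higher, 2 lower), 13 (11 higher, 2 lower) and 18 (16 higher, 2 lower) were called against Sa of set 1, and 0, 2 and 0 without Sa set 1 replicate 3 and 0, 8 and 7 with the description's column. The shares of all genes called against Sa of set 1 were 26.9%, 32.0% and 35.2%. Xiap, the ubiquitin ligase that acts on RIPK2, rose by 0.79, 0.84 and 0.92, and Erbin, a scaffold that binds NOD2, by 0.88, 0.86 and 1.01. Sa listed Xiap at 3.96 and 13.25 FPKM and Erbin at 11.21 and 32.63 FPKM, and without Sa replicate 3 the changes were 0.03, 0.08 and 0.16 for Xiap and 0.15, 0.13 and 0.28 for Erbin, with no call. In A10-FMT vs. Con-FMT of set 1, 2 were called higher and 2 lower, beside 16.7% of all genes called. Slc15a1, the apical peptide transporter that also carries muramyl dipeptide, rose by 0.74 there and fell by 0.67 in the same comparison of set 2, and Slc46a3, a lysosomal transporter, rose by 0.87 in set 1. Slc15a1 also fell after A10-FMT vs. Sa in set 2 (-0.65), the 1 gene of these lists called against Sa in that set. In this comparison 0.423% of all genes were called.

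Of the 14 caspase-8 and necroptosis partners, 6, 8 and 6 were called against Sa of set 1, of which 6, 7 and 5 were higher, and 0, 5 and 0 were called without Sa set 1 replicate 3 and 0, 8 and 2 with the description's column. The shares of all genes called against Sa of set 1 were 26.9%, 32.0% and 35.2%. In A10-FMT vs. Con-FMT of set 1, 4 were called and all 4 were higher, beside 16.7% of all genes called. Among them were the death receptor gene Fas (0.38) and Zbp1, a sensor of Z-form nucleic acids upstream of RIPK3 (0.34). Mlkl, the effector of necroptosis, rose by 0.48, 0.51 and 0.46 against Sa, with 0.19, 0.22 and 0.17 and no call without Sa replicate 3, and its log2 change in A10-FMT vs. Con-FMT was 0.03.

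Of 15 tested pyroptosis effectors and regulators (20 in the table), 4 (3 higher, 1 lower), 5 (all higher) and 4 (3 higher, 1 lower) were called against Sa of set 1, beside 26.9%, 32.0% and 35.2% of all genes. The counts without Sa replicate 3 were 0, 4 and 0, against 2, 6 and 3 with the description's column. In A10-FMT vs. Con-FMT of set 1, 4 were higher and 1 lower, beside 16.7% of all genes called. Serpinb1a, an inhibitor that restrains inflammatory caspases, rose by 0.27 at a mean level of 354 FPKM, and Txnip, a thioredoxin-binding protein, fell by 0.65. Gbp2, which coats bacteria upstream of caspase-11, rose by 0.61, at low means of 1.0 FPKM in Con-FMT and 2.02 FPKM in A10-FMT. Of the IL-1 family, 4 genes were tested of 12 in the table. Il33, an epithelial alarmin, rose by 1.22 and Il18bp, the secreted antagonist of interleukin-18, by 0.91 after A10-FMT vs. Sa in set 1, at 0.86 and 0.90 without Sa replicate 3, and both were also higher in A10-FMT than in Con-FMT (0.88 and 0.46) while Il18 itself had 0.14 ± 0.24 (adjusted p = 0.737). Both fell in A10-FMT of set 2 against set 1, by 0.98 and 0.75.

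Of 22 interferon-stimulated genes, 17, 17 and 18 were called against Sa of set 1, all higher, at median log2 changes of 0.76, 0.76 and 0.71, and 0, 5 and 1 were called without Sa set 1 replicate 3. With the description's column the counts were 6, 18 and 15, beside 0.397%, 33.8% and 8.51% of all genes. With the title's column, 26.9%, 32.0% and 35.2% of all genes were called. Ubd, a ubiquitin-like modifier, and Ifit2, an interferon-induced antiviral protein, rose by 1.76 and 1.68 in Con-FMT vs. Sa, with 1.56 and 1.04 and no call without Sa replicate 3. Averaged over both sets 16, 4 and 7 were called, all higher, beside 0.75%, 0.132% and 0.891% of all genes. These averages include Sa set 1 replicate 3, so they depend on that library and do not show that the sets agree. In set 2 alone 0 were called in each comparison, where the median log2 change after Con-FMT was 0.47. In A10-FMT vs. Con-FMT of set 1, 2 of the 22 were called, beside 16.7% of all genes.

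The genes whose log2(FPKM + 1) was most like each of the 10 over the 23 libraries differed from gene to gene. Gsdmd was closest to Pxdc1 (r = 0.954) and Slc6a8 (0.937), and to Pxdc1 (0.953) and Anxa2 (0.948) without Sa set 1 replicate 3. Casp8 was closest to the interferon-inducible Nmi (0.961) and Tstd3 (0.925), and to Zbp1 (0.933) and Pxdc1 (0.909) without that library. Casp1 was closest to Tax1bp1 and Sucla2 (both 0.97), and to Slc13a1 (0.798) without it, so that the high values for Casp1 rested on 1 library. Pycard was closest to the ribosomal protein genes Rpl8 (0.967) and Rps3 (0.964), and to Emg1 (0.92) and Rpl8 (0.905) without it. Casp4 was closest to Tc2n (0.884) and Nfkbiz (0.879), and to Tcf7l2 (0.761) without it. The closest genes of Nod1, Nod2, Nlrp6, Il18 and Ripk2 had r of 0.765 to 0.822, at Itpr3, Nox1, Herpud1, Slc5a9 and Ppp2r2d. Without that library they were Aida (0.855), Spata7 (0.788), Trim65 (0.825), Muc3 (0.746) and Ppp2r2d (0.744).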

How the data were processed

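Small intestine RNA was sequenced by the authors on an Illumina HiSeq, and they deposited 1 table of FPKM per gene (mm10 per the labels). The methods name RPKM and the columns FPKM. Read counts were not used here, so depth is unknown and no counting error is given. Samples were grouped by their titles. For Sa set 1 replicate 3, title and description name different columns.

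Of 19215 entries, the 11337 whose mean reached 1 FPKM were fitted on log2(FPKM + 1), which understates changes of low genes, with limma 3.58.1 (R 4.3.3): 8 group means, trended moderation and Benjamini-Hochberg adjustment at 0.05, two-sided, checked on simulated data. Symbols were matched for 17725 of 17842 Gene numbers. The 10 genes and all lists were chosen with earlier results of these data known. All 10 were named throughout. Of each list, the 2 genes of highest mean FPKM and the 2 with the largest called change against Sa in each comparison of set 1 and over both sets could be named, and for each of the 10 the 2 genes of highest Pearson's r. Promoters came from RefSeq. Alternatives were pseudocount, filter, scaling, samples fitted, weights, replicate block, GC content and length, the description's column and each library left out.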

Additional observations from a re-analysis of the deposited data

Results flagged for a closer look

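The change against Sa differed between the sets, by the interaction test of limma, in 9 results. For A10-FMT the set 2 minus set 1 difference in log2 change was -0.6403 for Casp1, -0.69 for Casp8, 0.6379 for Pycard and -1.058 for Gsdmd. For A100-FMT it was -0.6544 for Casp1, -0.8947 for Casp4, -0.4542 for Casp8, 0.5858 for Pycard and -0.5134 for Gsdmd. All 9 share the 2 Sa libraries of set 1. Without Sa set 1 replicate 3 the A10-FMT values were -0.21, -0.37, 0.35 and -1.05, and those for A100-FMT were -0.22, -0.49, -0.14, 0.30 and -0.51, none of which passed. With the description's column they were -0.20, -0.39, 0.33 and -1.33 for A10-FMT, and -0.21, -0.58, -0.16, 0.27 and -0.78 for A100-FMT, where Casp8 did not pass. The change of Gsdmd in A10-FMT vs. Con-FMT, which does not use the Sa means, differed between the sets by -1.157.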

How the results depend on the processing

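Counts are of the 10 genes called, in the comparisons named. The share of all genes called moved with the setting too, so a shift in a count is not particular to these genes. Without a filter on low values, Con-FMT vs. Sa in set 1 had 2 and A100-FMT vs. A10-FMT in set 1 had 0. Quantile normalization gave 3 and 0 there, and 2 in A10-FMT vs. Con-FMT of set 1 and in its difference between sets. Trimmed-mean scaling gave 2 in that difference. Of 19187 genes fitted without the filter, 1439 and 489 were called in the comparisons named for it. Of 11337 genes, quantile normalization called 1753, 354, 1456 and 1792 in the order given, and trimmed-mean scaling 1725.

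Fitting the compared groups alone gave 0 in the 3 comparisons with Sa of set 1, in A100-FMT vs. A10-FMT of set 1, in set 2 vs. set 1 of Sa and in the A100-FMT interaction, 2 in the A10-FMT interaction, and 3 in A10-FMT vs. Con-FMT of set 1 and in its difference between sets. Of all 11337 genes, that fit called 1 in each of the 3 comparisons with Sa of set 1. It called 0 in A100-FMT vs. A10-FMT of set 1 and 1 in set 2 vs. set 1 of Sa. In the A100-FMT and A10-FMT interactions it called 30 and 1470. It called 1781 in A10-FMT vs. Con-FMT of set 1 and 3628 in its difference between sets. Array quality weights were 0.0859 for both Sa libraries of set 1. They gave 0 in the 3 comparisons with Sa of set 1, in set 2 vs. set 1 of Sa and in both AOS interactions. Counts were 3 and 1 in A10-FMT and A100-FMT vs. Sa of set 2, and 6 and 2 in A10-FMT vs. Con-FMT of set 1 and set 2. With these weights 3 were called in A100-FMT vs. A10-FMT of set 1 and 5 in the difference of A10-FMT vs. Con-FMT between sets.

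The description's column gave 0 and 2 in Con-FMT and A100-FMT vs. Sa of set 1, 1 in A100-FMT vs. Sa of set 2, 2 in A10-FMT vs. Sa of both sets, 6 in A10-FMT vs. Con-FMT and 3 in A100-FMT vs. A10-FMT of set 1, 0 and 7 in set 2 vs. set 1 of Sa and A10-FMT, and 4 in the difference of A10-FMT vs. Con-FMT between sets. Of all genes, 0.397% and 8.51% were called in these Con-FMT and A100-FMT comparisons of set 1. The share was 4.94% in A100-FMT vs. Sa of set 2 and 1.38% in A10-FMT vs. Sa of both sets. It was 32.8% and 20.2% in A10-FMT vs. Con-FMT and A100-FMT vs. A10-FMT of set 1. It was 4.63% and 47.7% in set 2 vs. set 1 of Sa and A10-FMT, and 37.1% in the difference between sets. Correction for GC content and length gave 1 in Con-FMT vs. Sa of set 1, 3 in A10-FMT vs. Sa of both sets, 3 and 1 in A10-FMT vs. Con-FMT of set 1 and set 2, 2 in A100-FMT vs. A10-FMT of set 1 and 3 in the difference of A10-FMT vs. Con-FMT between sets. The cause of these shifts was not tested.

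With the replicate block, A10-FMT vs. Con-FMT of set 1 and its difference between sets had 2, and A100-FMT vs. A10-FMT of set 1 and set 2 vs. set 1 of Sa had 0. Deviations of same-numbered libraries from their group means correlated at -0.159 to 0.181 in set 1 and -0.352 to 0.319 in set 2. Those of differently numbered libraries correlated at -0.234 to 0.234 and -0.352 to 0.371. Deviations within groups of 2 or 3 libraries depend on each other, so whether the numbers pair libraries cannot be decided.

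With 1 library left out, the counts ran from 0 to 5, 2 to 7 and 0 to 7 in Con-FMT, A10-FMT and A100-FMT vs. Sa of set 1, from 0 to 1 in A100-FMT vs. Sa of set 2, and from 0 to 5, 0 to 6 and 0 to 5 over both sets. They ran from 1 to 6 in A10-FMT vs. Con-FMT and 0 to 3 in A100-FMT vs. A10-FMT of set 1, 0 to 1 in A10-FMT vs. Con-FMT of set 2, 0 to 7 and 3 to 7 in set 2 vs. set 1 of Sa and A10-FMT, 0 to 4, 4 to 8 and 0 to 7 in the Con-FMT, A10-FMT and A100-FMT interactions, and 1 to 4 in the difference of A10-FMT vs. Con-FMT between sets. The highest of these counts were all found without Sa set 1 replicate 1, in some comparisons also without other libraries. A10-FMT vs. Con-FMT of set 1 had 2 without A10-FMT replicate 1 or 3 or Con-FMT replicate 2, and its difference between sets had 2 without A10-FMT or Con-FMT set 1 replicate 1. The log2 change of Casp1 in Con-FMT vs. Sa, set 1 turned from 0.42 to -0.01926 with the description's column, and ran from -0.01132 to 0.8599 with 1 library left out. Gsdmd in A10-FMT vs. Con-FMT of set 1 was called under all of these. Depth is unknown, so no limit by counting error can be given.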
